A study of Mus musculus with 78 samples.

Results

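The miR-290 cluster, which runs from Mir290a to Mir295, is a group of microRNA genes on mouse chromosome 7 that is transcribed as a single primary transcript in embryonic stem cells. Its members were taken by gene name, and all 9 (Mir290a, Mir290b, Mir291a, Mir292, Mir292b, Mir291b, Mir293, Mir294 and Mir295) were found among the 54435 genes of the nascent RNA table and the 54446 genes of the steady-state RNA tables. The data come from V6.5 mouse embryonic stem cells (mESCs) whose Trim28 alleles carry an FKBP tag, a line expanded from a single picked colony, in which the ligand dTAG-13 (500 nM) degrades the TRIM28 corepressor. Nascent RNA (TT-SLAM-seq, captured after a short 4-thiouridine pulse) was measured in the vehicle DMSO and with dTAG-13 for 2 h, 6 h or 24 h. Polyadenylated RNA was measured in the same 4 conditions and with dTAG-13 for 96 h, and every group had 3 libraries. Both assays used cells grown on feeder fibroblasts and freed of them by 2 rounds of plating on gelatin. Polyadenylated RNA of untreated parental V6.5 mESCs, which carry no tag, and of neural progenitor cells (NPCs, strain V6.5) in DMSO was sequenced from 3 libraries each. Total RNA came from mESCs labelled shREPEATS, which by the study's methods express doxycycline (Dox)-inducible hairpin RNAs against endogenous retroviruses, with 3 libraries each in DMSO, dTAG-13, and dTAG-13 + Dox (2 ug/ml), all at 24 h. For the parental and shREPEATS cells the labels describe growth on a feeder layer and no removal of it. The treatment notes of all 3 shREPEATS groups mention a Dox pretreatment, so the groups are called here by their titles and treatment labels. ChIP-seq of H3K27Ac and H3K9me3 (3 libraries each) and of RNAPII and the Mediator subunit MED23 (2 each) compared DMSO with 24 h of dTAG-13.

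MicroRNAs are cut from long primary transcripts as hairpins, first in the nucleus by Drosha with Dgcr8 and then in the cytoplasm by Dicer, and they guide Argonaute proteins to messenger RNAs that pair with their seed, the bases at positions 2 to 8. The miR-290 cluster supplies much of the microRNA content of mESCs and is switched off as the cells differentiate. Its members with an AAGUGC seed core are known to favour the fast G1-S transition of mESCs, partly by lowering the inhibitor Cdkn1a, whereas the let-7 family acts in the opposite sense in differentiating cells. TRIM28 is recruited to endogenous retroviruses, where it brings about H3K9me3 and silencing, and pluripotency factors bind the enhancers upstream of the cluster.

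The table of RefSeq microRNAs (GRCm38.p6) holds 17 mature sequences from all 9 genes, with 11 different seeds, and no entry for miR-292a-3p. The following 3 members share the seed AAGUGCU, shown in capitals here and in every microRNA below, and it is also the seed of miR-302b-3p and miR-302d-3p, which lie on chromosome 3 and are not in the cluster.
miR-291a-3p: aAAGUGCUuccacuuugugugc
miR-294-3p: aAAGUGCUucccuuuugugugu
miR-295-3p: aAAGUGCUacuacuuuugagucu
miR-302b-3p: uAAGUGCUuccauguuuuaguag
miR-302d-3p: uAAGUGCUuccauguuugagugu

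A further pair of members differs from that seed only in its last base, and the 3p product of Mir293 starts with a part of that core, AGUGC.
miR-290a-3p: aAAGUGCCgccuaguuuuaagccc
miR-291b-3p: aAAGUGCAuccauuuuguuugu
miR-293-3p: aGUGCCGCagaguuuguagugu

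On the other arm of the hairpins, 3 members share the seed CUCAAAC, which has no AAGUGC core.
miR-290a-5p: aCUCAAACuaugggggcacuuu
miR-292a-5p: aCUCAAACugggggcucuuuug
miR-293-5p: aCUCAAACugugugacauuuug

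In GENCODE vM21 (GRCm38), the cluster spans chr7:3218626-3220841, or 2216 bases. The 7 genes on the plus strand run in the order Mir290a (chr7:3218626-3218708), Mir291a (chr7:3218919-3219000), Mir292 (chr7:3219189-3219270), Mir291b (chr7:3219482-3219560), Mir293 (chr7:3220343-3220422), Mir294 (chr7:3220641-3220724) and Mir295 (chr7:3220773-3220841). Mir290b and Mir292b lie on the minus strand inside Mir290a and Mir292. The gap between neighbouring hairpins runs from 48 bases, between Mir294 and Mir295, to 782 bases, between Mir291b and Mir293, so a read can count for both Mir294 and Mir295. All members except Mir290a and Mir290b fall in an annotated exon of Nlrp12, an inflammation-related gene on the minus strand, and RefSeq places the long noncoding RNA D7Ertd143e (chr7:3218784-3221015, plus strand) across Mir291a to Mir295. Upstream, RefSeq lists a regulatory region tied to Mir290a and AU018091 at chr7:3199611-3215602, which ends 3023 bases before Mir290a.

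The FPKM values of the 12 nascent RNA libraries divide into whole reads, with library totals of 6481999 to 24266191 reads. Between 13 and 296 reads lay behind each FPKM value of the 7 plus-strand genes, which limits the precision of any single library. Trim28 itself, whose protein and not whose RNA is the target of dTAG-13, had 1.87 FPKM in DMSO and 1.35 at 24 h. In polyadenylated RNA its mean was 624 TPM in DMSO and 599, 495, 372 and 192 at 2 h, 6 h, 24 h and 96 h. In the shREPEATS line it was 270 TPM in DMSO, 206 with dTAG-13 and 284 with dTAG-13 + Dox. The cause of these shifts was not tested. As the protein is the target, Trim28 RNA was not used to check the labels of treatment. The ESC markers Pou5f1, Nanog, Zfp42, Dppa5a, Utf1 and Tdgf1 were under 1 TPM in every NPC library, where 7 of 8 NPC markers reached 1 TPM, and all 8 ESC markers reached 1 TPM in every mESC library.

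In control mESCs, nascent RNA was found over the 7 plus-strand genes and almost not at all over the minus-strand pair. Mir292b was listed at 0 in all 12 libraries and Mir290b in 11, with 2 reads (1.71 FPKM) in 24 h replicate 2. FPKM divides by length, and the hairpins are 69 to 84 bases long, so levels are comparable among them. In DMSO the order of mean levels was Mir293 (191 FPKM ± 17.5, SD, n = 3), Mir290a (171 ± 46.7), Mir292 (162), Mir291b (139), Mir291a (109), Mir294 (106) and Mir295 (88.0). The ranges of all neighbours in that order overlapped, so it is not fixed beyond the spread of the libraries.

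After 24 h of dTAG-13, nascent RNA of all 7 measured members was lower than in DMSO by more than 2-fold. Mir293, with the highest mean nascent level in DMSO, gave 210, 188 and 175 FPKM in DMSO and 51.6, 33.3 and 58.6 at 24 h (log2 fold change -2.02 ± 0.19, SE, adjusted p = 8.04e-05). Mir290a, the first hairpin of the transcript, gave 204, 192 and 118 FPKM in DMSO and 69.9, 63.0 and 79.0 at 24 h (-1.24 ± 0.19, adjusted p = 0.000933). Each 24 h library lay below each DMSO library for both genes.

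Mir291a, a carrier of the AAGUGCU seed, gave 139, 107 and 81.2 FPKM in DMSO and 31.0, 25.9 and 38.1 at 24 h (log2 fold change -1.75 ± 0.21, adjusted p = 0.000272). Mir291b, its close copy with an AAGUGCA seed, gave 162, 139 and 115 FPKM and then 32.2, 46.8 and 39.6 (-1.80 ± 0.25, adjusted p = 0.000493). Mir292 gave 217, 164 and 105 FPKM and then 37.6, 46.3 and 64.8 (-1.67 ± 0.28, adjusted p = 0.00126). In these 3 genes too the groups did not overlap, and DMSO replicate 3 was the lowest control library.

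Mir295, the last hairpin, gave 125, 87.5 and 51.6 FPKM in DMSO and 33.3, 33.0 and 29.5 at 24 h (log2 fold change -1.36 ± 0.26, adjusted p = 0.00288). Mir294, which shares the seed of Mir295 and lies next to it, gave 145, 115 and 58.1 FPKM and then 45.2, 51.6 and 40.9 (-1.11 ± 0.30, adjusted p = 0.0165). The call on Mir294 was the one that rested on single libraries. Its adjusted p was 0.0575 (log2 fold change -0.83) without DMSO replicate 1, 0.0573 without DMSO replicate 2 and 0.054 (-1.03) without 24 h replicate 3.

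Of all 13357 genes tested at 24 h, 5.59% were lower, 0.906% were lower by more than 2-fold, and 8.52% had libraries that did not overlap in that direction. The median gene stood at +0.21 on the log2 scale, and once each library was centred on its median, 16.8% of genes were lower and 13.9% higher, against 5.59% and 32.3% as scaled by the authors. The 7 members were lower under either scaling, with a median log2 fold change of -1.67 as deposited.

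**Figure D1:**
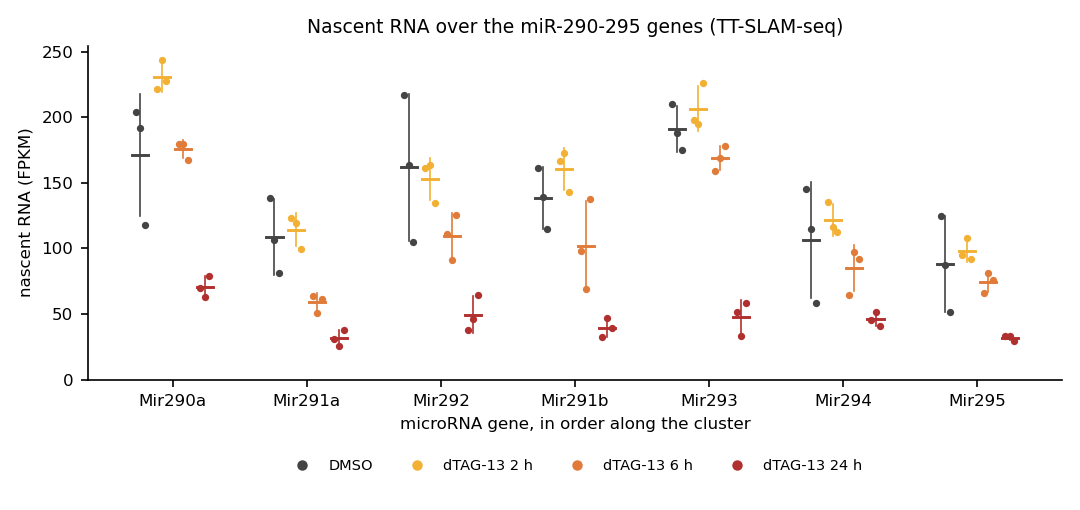
Nascent RNA in FPKM (vertical axis, from 0) over the 7 plus-strand genes in the order of the cluster, for 3 libraries in each of 4 groups; points are libraries, horizontal bars means and vertical bars SD. At 24 h all points lie under the DMSO points of the same gene, while at 2 h Mir290a lies above them.

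At 2 h no member passed the test, in a comparison in which 1.97% of genes were lower and 1.58% higher (1.65% and 3.44% after centring). Mir290a had 221, 244 and 228 FPKM, each above the DMSO libraries (log2 fold change +0.47 ± 0.19, adjusted p = 0.201), an arrangement that 8.35% of genes showed. The test on recovered whole reads called it higher (+0.54, adjusted p = 0.0414), so its call at 2 h depends on the method. It was 1 of 7 members at an unadjusted p under 0.05.

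At 6 h 1 of 7 members passed the test. Mir291a fell to 64.0, 50.7 and 61.8 FPKM, below every DMSO library (log2 fold change -0.86 ± 0.21, adjusted p = 0.039; 7.55% of genes did not overlap in that direction), whereas Mir290a read 180, 180 and 168 (+0.08 ± 0.19, adjusted p = 0.842). Mir292 and Mir291b read -0.51 and -0.49 (adjusted p = 0.272 and 0.245), and Mir293, Mir294 and Mir295 between -0.24 and -0.15. The call on Mir291a was lost in 5 of the 6 fits that leave out 1 library, with adjusted p from 0.0847 to 0.117, and 1.27% of all genes were lower at this time (2.55% after centring, with 7.82% and 5.47% higher).

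The ratio of Mir290a to Mir291a, a comparison chosen after its values were seen and given with no test, was taken within each library, where depth cancels. The DMSO libraries had ratios of 1.47, 1.79 and 1.45. With dTAG-13 the ratio was 1.79, 2.05 and 2.28 by 2 h, then 2.81, 3.54 and 2.71 by 6 h, and 2.25, 2.44 and 2.07 by 24 h. The 6 h libraries had the highest ratios, above all others, and the 24 h libraries lay above DMSO.

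Polyadenylated RNA gave another order of the members. In DMSO, Mir295 was highest with 34.0, 23.7 and 44.0 TPM, ahead of Mir294 (mean 18.0 TPM), Mir291b (16.1) and Mir293 (11.5), whose ranges overlap with their neighbours. Mir290a (2.63 TPM), Mir292 (2.56) and Mir291a (0.724) lay beneath the other members without overlap, although Mir290a and Mir292 did not differ beyond their spread. Most of a cut primary transcript carries no poly(A) tail, and these values rest on few reads, with a mean coverage of only 1.46 to 3.24 reads per base over Mir291a in DMSO. The strand setting behind these tables is not given in the sources used here, so reads of the members and of Nlrp12 may not be told apart.

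At 24 h, the 6 members that passed the filter of 1 TPM in 3 libraries were all lower in polyadenylated RNA by more than 2-fold, with no overlap between the groups. Mir290a and Mir292, with medians of 0.699 and 0.968 TPM at 24 h, had passed that filter only through other groups, where they were higher. Mir294 gave 12.7, 10.7 and 30.8 TPM in DMSO and 2.37, 3.91 and 4.96 at 24 h (log2 fold change -2.02 ± 0.38, adjusted p = 0.000279). Mir295 dropped to 6.64, 10.4 and 12.4 TPM (-1.73 ± 0.32, adjusted p = 0.000244). For both genes every library at 24 h lay below every DMSO library.

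Mir293 gave 11.9, 7.07 and 15.6 TPM in DMSO and 2.19, 3.75 and 5.20 at 24 h (-1.51 ± 0.33, adjusted p = 0.00106). Mir291b gave 14.2, 10.5 and 23.7 TPM and then 5.79, 6.72 and 6.40 (-1.21 ± 0.28, adjusted p = 0.00148). The low members fell as well, Mir290a from 2.52, 2.67 and 2.7 TPM to 0.699, 0.097 and 1.29 (-1.53 ± 0.42, adjusted p = 0.00514) and Mir292 by 1.08 ± 0.24 on the log2 scale (adjusted p = 0.00104). Among all 17922 genes, 25% were lower and 2.01% lower by more than 2-fold, 26.2% did not overlap in that direction, and centring gave 44.1% lower and 25.9% higher against 25% and 42.9%. The first 24 h library was the shallowest of the 30 RNA-seq libraries, at 0.337 of the median depth, and all 6 members stayed called without it. The summed TPM of the 8 ESC markers, which include Pou5f1 and Nanog, lay between 4907 and 5329 in DMSO and between 3314 and 3664 at 24 h, a fall whose part in these results was not tested. The 8 feeder fibroblast markers summed to between 91.8 and 97.3 TPM in DMSO and to at most 88.3 at 24 h, with Col3a1, Dcn and Lum under 1 TPM in both groups.

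At 2 h and 6 h no member passed in polyadenylated RNA (limma, 0 and 4 of 6 at an unadjusted p under 0.05), while 7.02% of genes were lower and 8.25% higher at 2 h. At 6 h the log2 fold changes lay between -0.83 (Mir294, adjusted p = 0.105) and -0.52 (Mir293), and Mir295 came nearest with 12.2, 22.0 and 22.8 TPM (-0.82 ± 0.32, adjusted p = 0.0613). For Mir295 and Mir290a all 6 h libraries lay below DMSO, as for 20.2% of genes. Centring raised the number of lower members at 6 h to 3, namely Mir292, Mir291b and Mir295, in a comparison with 15.5% of genes lower (26.3% after centring) and 18.4% higher (11.3%). Leaving out DMSO replicate 2 also gave 3, and leaving out 6 h replicate 2 or 3 gave 1.

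At 96 h most plus-strand members were all but gone from polyadenylated RNA. Mir291a, Mir292, Mir293 and Mir295 were listed at 0 in all 3 libraries, Mir294 did not exceed 0.00191 TPM and Mir291b did not exceed 0.00735. Mir290a still gave 0.279, 1.11 and 0 TPM. All 6 tested members passed as lower, but they had passed the filter through the earlier groups alone, and 37.4% of genes were lower at this time (48.6% after centring, with 42.9% and 33.7% higher). The summed TPM of the 8 ESC markers was down to between 413 and 487 at 96 h, while that of the 8 feeder fibroblast markers, of which Lum alone stayed under 1 TPM, stood between 1411 and 1485. In bulk RNA, fewer mESCs and less RNA per mESC cannot be told apart, and the part of the marker shifts in this result was not tested.

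**Figure D2:**
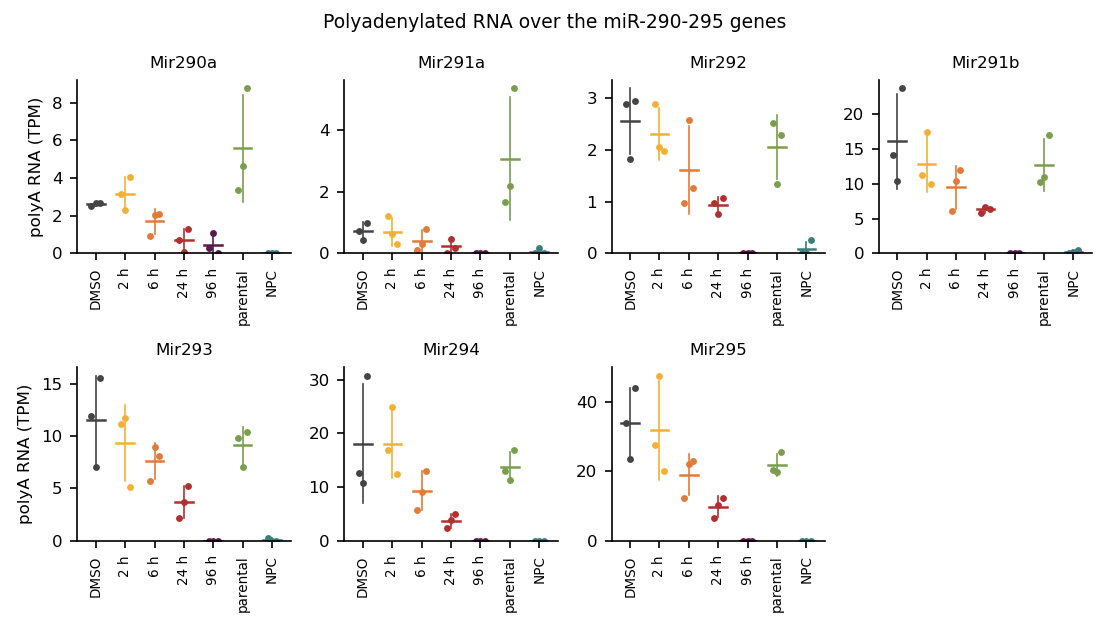
Polyadenylated RNA in TPM (vertical axes, from 0, a scale for each gene) in DMSO, after 2 h to 96 h of dTAG-13, in parental mESCs and in NPCs; points are libraries (3 per group), horizontal bars means and vertical bars SD. The means of Mir291b, Mir293, Mir294 and Mir295 step down from 6 h to 24 h. All 7 genes are near 0 in NPCs, and all but Mir290a, which reaches 1.11 TPM, are near 0 at 96 h.

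NPCs showed the lower bound of this scale. Mir290a, Mir294 and Mir295 were listed at 0 in all 3 NPC libraries, and the highest value of any member was 0.497 TPM (Mir291b, replicate 3). The 7 members tested passed as lower, again after passing the filter through the mESC groups alone, among 39.5% of 17458 genes (52% after centring, with 49.5% and 36.7% higher). Parental mESCs kept the order of the tagged line at the top, with 20.4, 19.8 and 25.6 TPM for Mir295 and 12.9, 11.3 and 16.9 for Mir294.

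Against tagged mESCs in DMSO, the parental line had more Mir290a (3.35, 4.64 and 8.77 TPM, log2 fold change +0.86 ± 0.26, adjusted p = 0.0155) and more Mir291a (1.66, 2.18 and 5.35 TPM, +1.43 ± 0.34, adjusted p = 0.00458), without overlap, an arrangement that 27.2% of genes showed. Mir295 read lower (-0.58 ± 0.19, adjusted p = 0.0241), with overlapping libraries, and the other 4 members lay between -0.29 and -0.25 without passing. Parental replicate 3 was the highest for both raised genes. Mir291a had passed the filter through the parental group alone, where it is high, so its call is not independent of that choice. Leaving out any parental library took Mir291a below the filter. The call on Mir295 was lost without DMSO replicate 1 or 3 and without parental replicate 1 or 2 (adjusted p from 0.0645 to 0.0771) and after centring. In this comparison 25% of genes were higher and 41% lower, and 41.8% and 26.9% after centring. Parental and tagged libraries differ in treatment (none against DMSO) and in the described removal of feeder cells. They also differ in the tag and in the growth of the tagged line from a single colony, and these cannot be told apart. Trim28 itself averaged 1398 TPM in parental mESCs and 624 in tagged mESCs in DMSO. Feeder fibroblast markers summed to between 144 and 146 TPM in parental mESCs.

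Total RNA of the shREPEATS line, which keeps transcripts without a poly(A) tail, measured 7 members above the filter. In DMSO, Mir291b was highest with 54.7, 52.6 and 52.5 TPM, then Mir293 with 27.5, 34.0 and 27.9. Mir295, Mir290a, Mir292 and Mir294, with means of 16.4, 16.2, 13.7 and 12.8 TPM, did not differ from each other in this order beyond their spread, and lay below Mir293 without overlap. Mir291a was lowest at 4.05, 3.93 and 4.13, also without overlap. Mir290a thus stood level with Mir295 here, whereas in polyadenylated RNA it lay far beneath it, although the line and the library kit differ as well.

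With dTAG-13 alone, all 7 members of the shREPEATS line were lower by more than 2-fold and did not overlap with DMSO. Mir291b gave 19.8, 20.8 and 16.5 TPM (log2 fold change -1.47 ± 0.12, adjusted p = 2.06e-06). Mir294 went from 13.3, 14.1 and 11.0 TPM to 3.51, 3.78 and 2.7, the largest fall of the 7 (-1.80 ± 0.17, adjusted p = 4.48e-06). Mir290a went from 13.6, 18.1 and 16.9 TPM to 6.58, 6.41 and 7.13 (-1.21 ± 0.10, adjusted p = 1.34e-06). Mir292, Mir293 and Mir295 read -1.40, -1.33 and -1.27, each passing the test. Mir291a, with 0.889, 3.52 and 1.26 TPM, was the weakest call (-1.08 ± 0.42, adjusted p = 0.0452) and was lost in 5 of 6 fits without 1 library (adjusted p from 0.0825 to 0.156). Among all 16166 genes 12.8% were lower, 1.44% lower by more than 2-fold and 14% without overlap, and centring gave 29.6% lower and 25.9% higher against 12.8% and 41.2%.

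With dTAG-13 + Dox, 6 of the 7 members were higher than with dTAG-13 alone, 5 of them by more than 2-fold. Mir291b gave 38.9, 46.5 and 59.1 TPM (log2 fold change +1.30 ± 0.12, adjusted p = 6.45e-06) and Mir294 gave 10.1, 9.58 and 15.6 TPM (+1.66 ± 0.17, adjusted p = 1.09e-05). Mir290a, with the smallest SE of the 7, gave 12.0, 11.6 and 13.1 TPM (+0.82 ± 0.10, adjusted p = 3.29e-05). Mir295, Mir292 and Mir293 read +1.33, +1.24 and +1.12, and all 3 passed. For these 6 the groups did not overlap. Mir291a, at 2.65, 1.96 and 7.57 TPM, did not pass (+0.89 ± 0.42, adjusted p = 0.101), but passed without dTAG-13 replicate 2 (+1.34, adjusted p = 0.0145) or without dTAG-13 + Dox replicate 2 (+1.23, adjusted p = 0.0332). Of all genes 17.5% were higher, 1.49% by more than 2-fold, and 22.8% higher without overlap, with 28.3% higher and 25.5% lower after centring against 17.5% and 29.3%. This comparison and the preceding one share the dTAG-13 libraries, so a chance low value there would move both. The 8 ESC markers summed to between 2429 and 2802 TPM in DMSO, 1258 and 1283 with dTAG-13 and 2679 and 2728 with dTAG-13 + Dox, so they moved with the members, and their part was not tested. Feeder fibroblast markers, with Dcn and Lum under 1 TPM throughout, summed to between 688 and 775 TPM over the 3 groups.

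Between dTAG-13 + Dox and DMSO, no member passed the test (limma, 1 of 7 at an unadjusted p under 0.05), and 2 of 16166 genes were lower (0.0124%) and 8 higher (0.0495%). Mir290a came nearest, with all 3 dTAG-13 + Dox libraries below DMSO (-0.38 ± 0.10, adjusted p = 0.186), an arrangement shown by 1.27% of genes. The other members lay between -0.21 (Mir293) and +0.06 (Mir295), and a difference that misses the threshold does not show that the levels were equal.

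**Figure D3:**
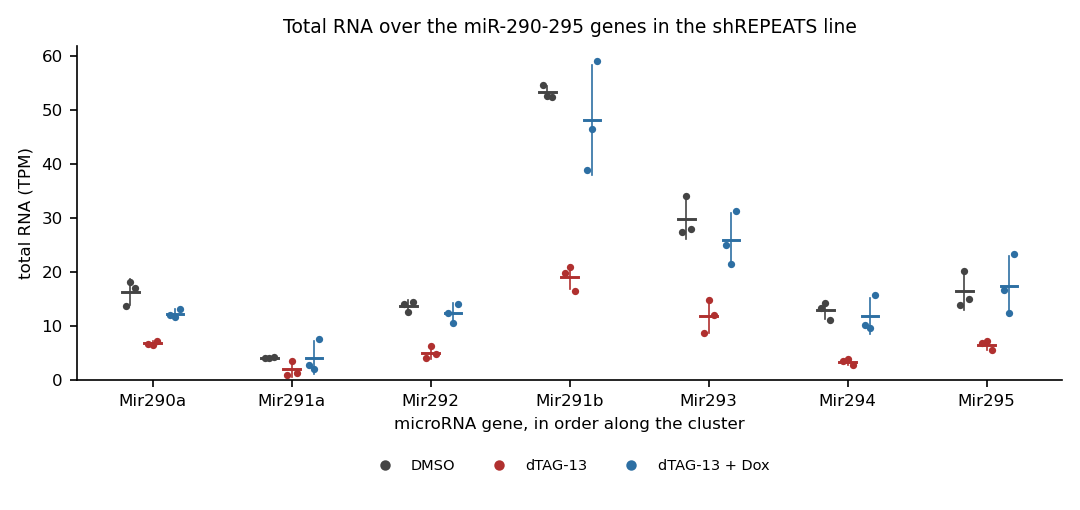
Total RNA in TPM (vertical axis, from 0) over the 7 plus-strand genes in the shREPEATS line for 3 libraries each in DMSO, dTAG-13 and dTAG-13 + Dox; points are libraries, horizontal bars means and vertical bars SD. The dTAG-13 points lie under the DMSO points for every gene, and the dTAG-13 + Dox points lie above the dTAG-13 points except for Mir291a.

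**Figure D4:**
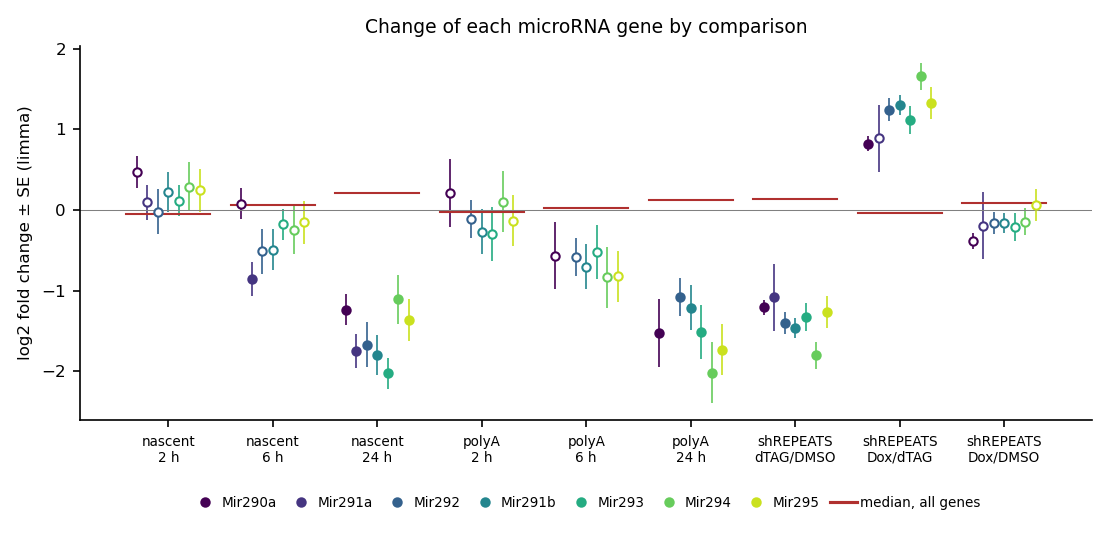
Log2 fold change of each member ± SE from limma (vertical axis) in 9 comparisons (horizontal axis), with filled points where the adjusted p is below 0.05, open points elsewhere, no point for Mir291a in polyadenylated RNA, and red lines at the median of all genes tested. The members lie between -2.02 and -1.11 in nascent RNA at 24 h, and between -0.38 and +0.06 for dTAG-13 + Dox against DMSO.

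Neighbouring genes within 50 kb were measured beside the cluster. AU018091, a gene upstream of the regulatory region, gave 1.79 FPKM in DMSO and 1.02 at 24 h in nascent RNA (log2 fold change -0.60 ± 0.12, adjusted p = 0.00356) and 51.0 and 27.9 TPM in polyadenylated RNA (-0.86 ± 0.06, adjusted p = 2.61e-08). Nlrp12, which overlaps the cluster on the other strand, was too low for the nascent RNA test and fell from 2.62 to 1.11 TPM in polyadenylated RNA (-0.95 ± 0.09, adjusted p = 5.12e-07). In the shREPEATS line it gave 4.19, 4.58 and 3.63 TPM in DMSO, 1.75, 1.59 and 1.87 with dTAG-13 and 3.77, 3.41 and 3.16 with dTAG-13 + Dox. The pseudogene Gm3375 fell from 76.2 to 50.9 TPM at 24 h (-0.58 ± 0.07, adjusted p = 4.03e-06), and it was at 56.9 TPM in NPCs. In the shREPEATS line AU018091 averaged 44.5 TPM in DMSO and 38.2 with dTAG-13, and Nlrp12 averaged 1.01 TPM at 96 h in polyadenylated RNA. Some other comparisons did not follow that direction. AU018091 was higher than DMSO at 96 h (58.8 TPM, +0.20, adjusted p = 0.00726), and with dTAG-13 in the shREPEATS line Gm3375 was higher (55.4 to 61.4 TPM, +0.15, adjusted p = 0.0344), both calls that turned below 0 after centring. At 96 h Gm3375 stood at 76.1 TPM (adjusted p = 0.998).

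Other microRNA genes of mESCs were listed beside the cluster, namely those of the miR-302 cluster and of the miR-17 family, many of whose products have a seed with an AAGUGC core or a shifted form of it. Mir367, which lies in the miR-302 cluster and is on the list, has other seeds. In nascent RNA at 24 h, 3 of 12 were lower and none higher (median log2 fold change -0.86, all genes +0.21, 5.59% of all genes lower), with Mir367 at -1.38 (adjusted p = 0.00339), Mir302a at -1.19 (adjusted p = 0.027) and Mir17hg at -0.82 (adjusted p = 0.000241). In polyadenylated RNA at 24 h, 6 of 9 were lower (25% of all genes), led by Mir302d (4.86 to 0.536 TPM, -2.40) and Mir302a (5.01 to 0.725 TPM, -2.34). With 24 h means under 1 TPM, Mir302d and Mir302a needed other groups to pass the filter, so their calls are not independent of it. In the shREPEATS line with dTAG-13, 8 of 9 were lower (12.8% of all genes), with Mir106a at -1.79 and Mir20b at -1.51, and with Dox added 4 of 9 were higher than with dTAG-13 alone (17.5% of all genes). At 6 h in polyadenylated RNA 1 of 9 was lower and 1 higher (15.5% and 18.4% of all genes). The higher one was Mir20b (0.495 to 1.84 TPM, +1.35, adjusted p = 0.0362). Its DMSO mean lay under 1 TPM, so it too needed other groups to pass the filter. The groups overlapped for Mir20b, and its call was lost in 4 of the 6 fits without 1 library (adjusted p from 0.0835 to 0.163). Centring left the 3 counts of lower genes at 3, 6 and 8, but Mir302a in nascent RNA lost its call in 4 of the 6 fits without 1 library (adjusted p from 0.0598 to 0.1). In parental mESCs 6 of the 7 measured genes of this list were lower than in the tagged line and 1 was higher (41% and 25% of all genes). Of the 7 tested members of the miR-290 cluster, 1 was lower and 2 higher.

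Of the 8 let-7 genes measured in nascent RNA, 1 was higher at 24 h (Mirlet7e, 2.07 to 7.95 FPKM, log2 fold change +2.23 ± 0.70, adjusted p = 0.0295) and none lower, and that call was lost after centring and without any of the 24 h libraries. The 14 microRNA processing genes tested, such as Drosha, Dicer1 and the Argonautes, gave 5 higher and 0 lower in nascent RNA at 24 h, where 32.3% of all genes were higher. After centring they gave 4 higher and 5 lower, so their direction depended on the scaling. In polyadenylated RNA at 24 h, 8 of 17 were higher and 6 lower, against 42.9% and 25% of all genes, and 6 and 8 after centring.

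Transcription factors known to bind upstream of the cluster fell in many cases. In nascent RNA at 24 h, 4 of 8 were lower and 1 higher (5.59% and 32.3% of all genes). The lower ones were Mycn (23.6 to 4.87 FPKM, log2 fold change -2.14, adjusted p = 3.48e-05), Myc (-1.13), Klf4 (-1.02) and Sox2 (-0.96). Tcf7l1 was higher at +0.43, a call lost after centring, when 5 were lower and 0 higher (16.8% and 13.9% of all genes). In polyadenylated RNA at 24 h, 6 of 8 were lower and 1 higher (25% and 42.9% of all genes). The lower ones include Myc (125 to 20.2 TPM, -2.60), Klf4 (44.1 to 11.6 TPM, -1.89) and Pou5f1 (1162 to 537 TPM, -1.11). In the shREPEATS line all 8 were lower with dTAG-13 (12.8% of all genes). All 8 were higher with dTAG-13 + Dox than with dTAG-13 alone (17.5% of all genes), and none passed between dTAG-13 + Dox and DMSO. Klf4 there went from 24.1 to 6.07 TPM (-1.91) and Nanog from 127 to 60.4 TPM (-1.06). Pou5f1, Sox2, Nanog and Esrrb are also on the list of ESC markers.

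Known targets of the AAGUGC seed were higher or did not pass at 24 h. In nascent RNA 6 of 8 were higher and none lower (median log2 fold change +0.44, all genes +0.21, 32.3% of all genes higher), and in polyadenylated RNA 8 of 10 (median +0.54, all genes +0.13, 42.9% higher). After centring these became 3 of 8 higher, and 6 of 10 higher with 2 lower. Cdkn1a, the cyclin-dependent kinase inhibitor, went from 5.67 to 11.6 FPKM (+0.96, adjusted p = 5.7e-05) in nascent RNA and from 68.6 to 108 TPM (+0.65, adjusted p = 6.89e-07) in polyadenylated RNA. In polyadenylated RNA 4 of 10 targets were higher by 2 h (8.25% of all genes), when no member of the cluster had passed the test. These were Cdkn1a (101 TPM, +0.56, adjusted p = 9.52e-05), Wee1, Rbl2 and Rela, of which Rbl2 lost its call in 5 of the 6 fits without 1 library (adjusted p from 0.0739 to 0.161). At 6 h 5 of 10 were higher (18.4% of all genes), and after centring 2 were higher and 1 lower. Lats2, a kinase of the Hippo pathway, read +0.61 in nascent RNA and +0.57 in polyadenylated RNA, both higher. In total RNA of the shREPEATS line 5 of 10 were higher with dTAG-13 (41.2% of all genes), and with Dox added 5 were lower and 1 higher than with dTAG-13 alone (29.3% and 17.5% of all genes). After centring, 5 were higher and 3 lower with dTAG-13 (25.9% and 29.6% of all genes). With Dox added, centring gave 5 lower and 2 higher (25.5% and 28.3% of all genes).

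Members resembled each other across libraries, to different degrees in the 2 assays. Over the 12 nascent RNA libraries, which share the 4 treatment groups, Pearson's r between pairs of the 7 members lay between 0.813 and 0.966 (median 0.902). Among 10605 other genes, those most like the members' mean were Mycn (r = 0.984, from 4.30 to 30.3 FPKM), Nr0b1 (0.982), Mrps18b (0.974), 9130008F23Rik (0.964) and Gm11613 (0.962). The likeness to Mycn includes the rise of its mean to 29.4 FPKM at 2 h and its fall to 15.5 at 6 h. Over the 21 polyadenylated RNA libraries, pairs of members had r from 0.665 to 0.991 (median 0.850), and Mir291a had the lowest r with the mean of the other members, 0.720. There the most alike of 19062 genes were Vwa3b (0.984), Rfc5 (0.983), Urb1 (0.981), Gemin5 (0.981) and Gm47725 (0.980). Vwa3b averaged 23.3 TPM in DMSO, 4.88 at 24 h and 0.08 at both 96 h and in NPCs. These are descriptions over libraries of shared groups.

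On chromatin, active marks and machinery were called over and upstream of the cluster in DMSO. Each H3K27Ac library in DMSO had a broad peak of 18546, 19673 and 19641 bases that ran from the upstream region into the hairpins, with fold enrichments of 20.4, 22.5 and 11.7 over the caller's background. After 24 h of dTAG-13 the highest peak within 50 kb had 8.36, 12.0 and 5.99. The difference of the means was -9.42, the groups overlapped, and the exact two-sided permutation test gave p = 0.2 (the design allows 0.1). Over the hairpins themselves the highest H3K27Ac peak went from 20.4, 22.5 and 11.7, the height of that broad peak wherever its summit lay, to 5.13, 3.89 and 4.37 on shorter peaks. Among 15295 H3K27Ac peaks found in every library the median ratio of dTAG-13 to DMSO was 0.810, that of the cluster's peak was 0.463, and 2.92% fell further. The cluster's peak was picked as the highest within 50 kb in DMSO, and shared peaks of like height were not compared. Totals of called H3K27Ac peaks were 88050, 117475 and 96407 for the DMSO replicates. Replicates 1 and 3 of dTAG-13 held 30259 and 45662 peaks, and replicate 2 held 117348. That replicate 2 had 12.0 within 50 kb, above the 11.7 of DMSO replicate 3, but 3.89 over the hairpins. The part of these totals in the lower values was not tested.

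RNAPII in DMSO formed a peak that ran from about 1 kb before Mir290a past the last hairpin, with fold enrichments of 40.6 and 37.6. With dTAG-13 the summit stayed at a position between -761 and -754 from the start of Mir290a in all 4 libraries. The peak around it was shorter and had 19.5 and 15.4. Inside the span of the DMSO peak, both dTAG-13 libraries also had a separate peak past the last hairpin, with 5.98 and 7.75. The share of the cluster under an RNAPII peak went from 100% in both DMSO libraries to 15.1%, from a pair of small peaks in replicate 1, and 0%. With 2 libraries per group the exact two-sided permutation test cannot go below p = 0.333, which it gave for the difference of -21.6. The libraries differ in how much was called, with 19853 and 19194 RNAPII peaks in the DMSO libraries but 8182 and 7689 in the dTAG-13 libraries. Over 5400 shared peaks the median ratio was 0.540 against 0.447 at the cluster, with 36.1% falling further. The ratio at the cluster was thus close to that of the median shared RNAPII peak.

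The 300 bases around the RNAPII summit (GRCm38, chr7:3217717-3218016, plus strand) are shown because an RNAPII peak was called here in all 4 libraries. Capitals mark a run of letters that resembles the TATA box, TATATAA, which starts at position -824 from the start of Mir290a.
RNAPII summit: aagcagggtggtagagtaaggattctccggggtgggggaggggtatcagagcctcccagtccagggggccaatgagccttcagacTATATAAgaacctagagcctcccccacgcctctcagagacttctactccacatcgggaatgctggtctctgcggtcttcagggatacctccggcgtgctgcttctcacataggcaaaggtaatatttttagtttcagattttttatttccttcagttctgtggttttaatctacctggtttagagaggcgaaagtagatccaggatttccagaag
The letters TATATAA were searched after the sequence had been seen, and on either strand they occur in 3.24% of 32851 RefSeq promoters of the same length. TATAAA, the octamer ATGCAAAT and the Esrrb motif TCAAGGTCA, present in 13.6%, 1.74% and 0.423% of those promoters, have no match in these 300 bases.

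MED23 was strongest in the upstream region rather than at the hairpins. Its highest peak within 50 kb had a summit about 11.9 kb before Mir290a in all 4 libraries, with fold enrichments of 87.2 and 94.8 for the DMSO libraries against 21.0 and 18.5 with dTAG-13 (difference -71.2, exact permutation p = 0.333, the smallest possible). In DMSO a weaker peak of 23.1 and 23.8 lay over the hairpins, covering 92.7% and 100% of the cluster, and after dTAG-13 no MED23 peak touched it. The number of MED23 peaks within 50 kb went from 15 and 13 to 8 and 8. Over 11247 MED23 peaks found in every library the median ratio was 0.490, that of the highest peak within 50 kb, upstream of the cluster, was 0.217, and 8.20% fell further. This peak was picked by its height in DMSO, and shared peaks of like height were not compared. The 6 such peaks within 50 kb had log2 ratios from -3.62 to -0.93. The DMSO libraries had 63045 and 58925 MED23 peaks in all, the dTAG-13 libraries 15335 and 14551.

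H3K9me3, the mark set through TRIM28, was close to absent from the region. Within 50 kb there were 5, 2 and 1 H3K9me3 peaks in DMSO and 0, 0 and 1 after dTAG-13 (exact two-sided permutation p = 0.2), with fold enrichments of at most 2.71 and none with a -log10 q of 5 or more.

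**Figure D5:**
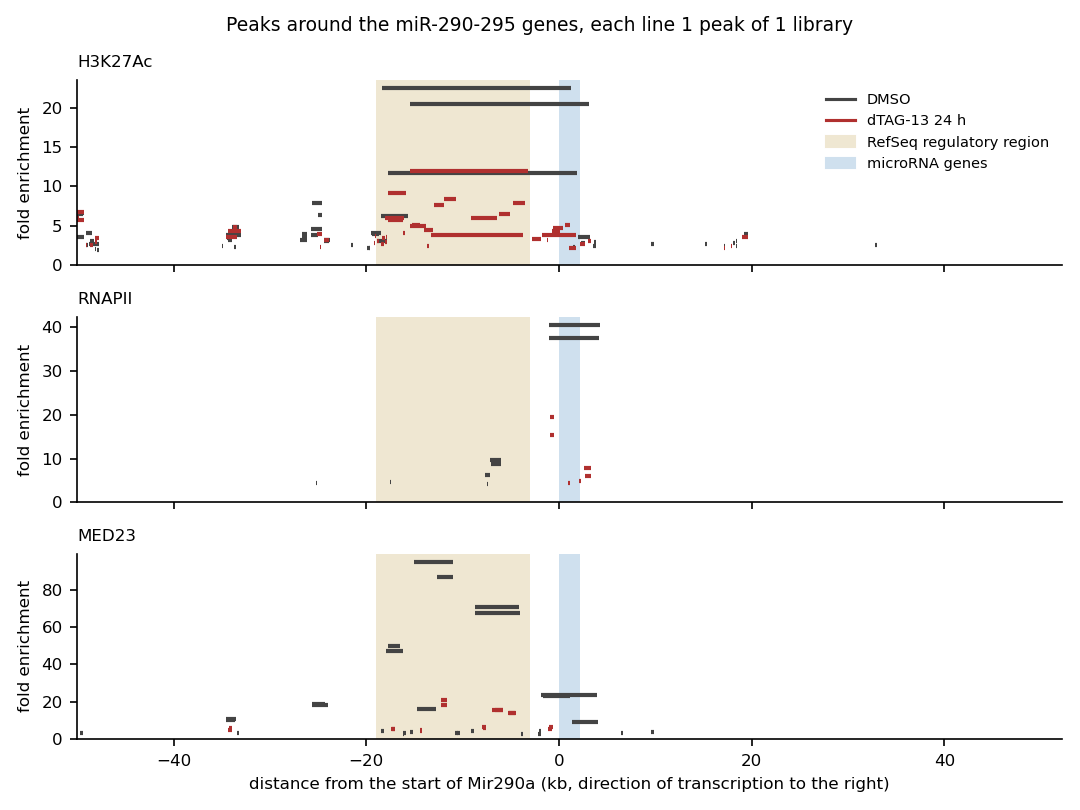
Peaks of H3K27Ac, RNAPII and MED23 by distance from the start of Mir290a (horizontal axis, kb) and fold enrichment over the caller's background (vertical axes, from 0), each line 1 peak of 1 library drawn over its length, in DMSO (grey) and after 24 h of dTAG-13 (red); shading marks the RefSeq regulatory region and the microRNA genes. RNAPII and MED23 lines in DMSO reach 40.6 and 94.8, and those after dTAG-13 reach 19.5 and 21.0.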

How the data were processed

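TT-SLAM-seq reads were cleared of rRNA with STAR, mapped with SLAM-DUNK, filtered for T-to-C conversions and counted per gene by strand with htseq-count by the authors, who deposited FPKM. Multiplied by gene span and library total, 100% of the FPKM values came within 0.02 of a whole number of reads, over the 53218 of 54435 genes with a known span. A read that overlaps a hairpin in part can be counted, and htseq-count kept reads that fit 2 genes. For RNA-seq the authors deposited StringTie (version 2.0.6, after STAR 2.7.5a per the labels) tables with TPM, scaled to length and depth, and read coverage. The coverage, a signal not scaled by depth as deposited, was used only to compare depth. For ChIP-seq the deposited peaks were called by the authors per library with MACS2, each with a fold enrichment over background and −log10 p and q, unscaled by the added spike-in genome. Builds were mm10, and other settings are not given in the sources used here.

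Genes with at least 0.5 FPKM or 1 TPM in at least 3 libraries entered two-sided limma tests (version 3.58.1, R 4.3.3) with trended eBayes and Benjamini-Hochberg adjustment on log2(value + 0.5), with separate fits for TT-SLAM-seq, for polyadenylated RNA over time, for shREPEATS and for parental, tagged and NPC libraries. The fits were tested on simulated data. A test is passed at an adjusted p below 0.05. Fold changes of low genes are understated on this scale, and p-values measure the spread of these samples. The time points share the DMSO libraries. Peaks were compared within 50 kb of the cluster by exact permutation. Named are all members, expressed genes within 50 kb, up to 5 passing genes per list, and the 5 genes with the highest r to the members' mean. The polyadenylated libraries number 21, where the written plan gave 24. The members and lists were chosen with earlier results of these data known. Hi-C and single-cell data were not used here. Same-numbered libraries showed little shared deviation (r from -0.158 to 0.177 over 18 TT-SLAM-seq pairs, 3 of them over 0.1). Other pairs had r from -0.208 to 0.153. Such values cannot exclude pairing, and the main fits used none. Alternatives were other pseudocounts, filters, scalings, a replicate block and leaving out libraries.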

Additional observations from a re-analysis of the deposited data

How the results depend on the processing

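The counts of lower members at 24 h and 96 h kept their direction under every alternative run: leaving out 1 library gave 6 to 7 in TT-SLAM-seq at 24 h, 6 in RNA-seq at 24 h and 96 h, 6 to 7 in the shREPEATS line with dTAG-13, 6 to 7 higher with dTAG-13 + Dox, and 7 in NPCs. Other counts moved. In TT-SLAM-seq at 2 h the test on recovered reads gave 1 higher member (0 to 0 without 1 library), and at 6 h no filter, a filter at a mean of 5 and the replicate block each gave 0 lower members (0 to 1 without 1 library). In RNA-seq at 6 h a mean of 5 gave 1 and centring gave 3 (0 to 3 without 1 library), with 0 to 0 at 2 h. Against parental mESCs, no filter and centring gave 0 lower (0 to 1), and a mean of 5 gave 0 higher (1 to 2), and in NPCs it gave 4 of the 4 members it kept. For dTAG-13 + Dox against DMSO the range was 0 to 0. The cause of these shifts was not tested, except that a filter at a mean of 5 tests fewer members.

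The replicate block, whose numbers are not known to pair the samples, changed no count of members other than that of 0 at 6 h. Leaving out 1 library moved the difference of the highest peak between -12.7 and -7.28 for H3K27Ac, -23.7 and -19.6 for RNAPII, -75.0 and -67.4 for MED23, and -3.17 and -1.17 for the number of H3K9me3 peaks. A window of 10 kb gave -53.4 for MED23, and peaks with a -log10 q of at least 5 gave 0 for H3K9me3. The RNAPII libraries after dTAG-13 hold fewer than 10000 peaks, so division by the median of the 5000 highest peaks was added after seeing the data, and gave -0.323 for RNAPII (exact permutation p = 0.667), -2.16 for MED23 and -0.599 for H3K27Ac. No H3K9me3 value could be had for scaled or ranked peaks, since 2 libraries have none. Of member values for single genes, 925 kept their call, 24 lost it, 12 gained it and none called changed sign. Centring reversed AU018091 (-0.0744) and Gm3375 (-0.28) at 96 h and Gm3375 in the shREPEATS line with dTAG-13 (-0.0175).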
